A study of Mus musculus with 18 samples.

Results

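The 9 genes described here are markers of Kupffer cells, the macrophages that live in the sinusoids of the liver, and of tissue macrophages in general. They were chosen by name: Clec4f, Vsig4, Cd163, Timd4, Marco, Cd5l, Emr1, Cd68 and Lyz2. Of these, 8 were found among the 21441 genes of the expression tables, and Cd68 was not analysed here. Expression was measured by RNA-seq in 18 libraries, 9 from mouse liver and 9 from cultured macrophages, as FPKM (fragments per kilobase of transcript, scaled to the size of the library).

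Livers came from 9 male C57BL/6 mice in 3 groups of 3. Control mice received saline. LPS mice received lipopolysaccharide, the endotoxin of Gram-negative bacteria, by intraperitoneal injection at 10 mg/kg. LPS+MIC-1 mice were gavaged with moringa isothiocyanate-1 (MIC-1) at 80 mg/kg for 3 days before the same injection, and livers were taken 16 h after it. The macrophage libraries are labelled Control, LPS and LPS+MIC-1, also with 3 each. The study used RAW264.7, an established mouse macrophage-like line, with MIC-1 at 10 µM. The labels of these libraries repeat the treatment of the mice, so the LPS dose and the time in culture are not given here. A whole liver holds many cell types, and a clonal line in a dish is no model of the resident cell in its tissue. Nothing in the labels or methods states whether RAW264.7 libraries of one group came from separate cultures, so p-values there measure the spread between these libraries.

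Resident macrophages clear bacteria, endotoxin, aged blood cells and dying cells from blood passing through the liver. They do so with lectins, complement receptors and scavenger receptors on the cell surface, and several markers below are such receptors. LPS is sensed through Toll-like receptor 4, which macrophages carry, and in bulk liver RNA a lower marker level can come from fewer cells or from less RNA per cell, which cannot be told apart.

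Some libraries stood apart from their group. RAW264.7 LPS library 2 correlated with the control libraries at r up to 0.990 over log2 values. Its correlation with the other LPS libraries was 0.862 and 0.860. It was closest to control library 2, at 1.84 times the sampling variance. The main RAW264.7 results are therefore given with and without LPS library 2, and the others use all libraries. The published analysis of this line used only 2 of the LPS replicates, and which one it left out is not stated in the sources used here. In liver, LPS+MIC-1 library 2 correlated at 0.947 with LPS library 2 and at 0.935 and 0.932 with its own group. Libraries 1 and 3 were more alike than either was to library 2 in the liver LPS and LPS+MIC-1 groups and in all 3 RAW264.7 groups, and liver control libraries 2 and 3 were the closer pair among controls. Estimated depth ran from 5.79 to 17.1 reads per FPKM and kilobase in liver and from 14.1 to 24.3 in RAW264.7, with 2 liver controls the shallowest. No pair differed by less than the sampling noise, and all libraries were counted.

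In liver, Clec4f and Vsig4 were lower after LPS and the scavenger receptor Marco was higher, while Timd4, Cd5l and Lyz2 did not pass the test. Clec4f and Vsig4 fell 4.31-fold and 2.76-fold, and Marco rose 8.05-fold, on the log2(FPKM + 0.5) scale used for every fold change here. Of the 7 members with a mean above 1 FPKM over the 9 liver libraries, 4 were called at an adjusted P-value below 0.05 in limma (1 higher, 3 lower). One of the 3 lower, Cd163, entered the test only because its controls were high, and without it 3 of 6 were called. Of all 10147 genes tested, 34.7% were called, 19.2% higher and 15.5% lower, so calls were frequent in this comparison.

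Clec4f encodes a C-type lectin that in mice is largely restricted to Kupffer cells (mm9 chr6:83594536-83606181, minus strand). It was at 13.002, 29.8 and 30.1 FPKM in control livers, at 6.32, 2.85 and 6.31 FPKM after LPS and at 4.44, 4.83 and 4.33 FPKM after LPS+MIC-1. All 6 libraries from LPS-injected mice were below all 3 controls and the lowest control value came from library 1, the deepest of the controls. The Log2FC of LPS against control was −2.11 ± 0.38 (SE, n = 3 per group) with an adjusted P-value of 0.00619 in limma.

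Vsig4 is the complement receptor CRIg, through which Kupffer cells capture opsonised bacteria (mm9 chrX:93442542-93488777, minus strand). Control livers had 6.70, 3.02 and 4.70 FPKM, LPS livers 1.32, 1.22 and 1.497 FPKM and LPS+MIC-1 livers 1.09, 0.647 and 1.72 FPKM. The control range did not overlap either injected group, whose ranges overlapped each other. For LPS against control the Log2FC was −1.47 ± 0.33 (SE), adjusted P-value 0.0125 in limma. With libraries 1 and 3 of each injected group averaged, and the controls left as they were, the call was lost at 0.0660.

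Cd163 is the receptor for haemoglobin bound to haptoglobin (mm9 chr6:124254669-124280545, plus strand). Its levels were low: 1.53, 2.44 and 2.55 FPKM in controls, 0.469, 0.898 and 0.268 FPKM after LPS and 0.894, 0.739 and 0.829 FPKM after LPS+MIC-1. No injected library reached the lowest control. It passed the filter on low values only through the controls, with a mean of 1.18 FPKM over the 9 libraries, so its call supports nothing by itself. The Log2FC after LPS was −1.37 ± 0.30 (SE), adjusted P-value 0.0119 in limma, and 0.0137 with no filter on low values. It was 0.0517 without LPS library 3 and 0.0882 with libraries 1 and 3 averaged.

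Timd4, a receptor for phosphatidylserine on dying cells, marks long-lived resident macrophages. It was at 1.95, 3.39 and 2.80 FPKM in controls, at 1.98, 2.10 and 1.92 FPKM after LPS and at 1.48, 1.88 and 0.942 FPKM after LPS+MIC-1. The LPS range overlapped the controls, while all 3 LPS+MIC-1 values were below both other groups. The Log2FC after LPS was −0.34 ± 0.26 (SE), adjusted P-value 0.328 in limma.

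Marco is a class A scavenger receptor that binds bacteria and particles (mm9 chr1:122371115-122401661, minus strand). It rose from 2.51, 6.79 and 2.18 FPKM in controls to 23.1, 40.4 and 31.3 FPKM after LPS, and stood at 74.2, 38.4 and 75.6 FPKM after LPS+MIC-1. Both injected groups were above every control, and LPS+MIC-1 library 2 lay within the LPS range. The Log2FC of LPS against control was 3.01 ± 0.43 (SE), adjusted P-value 0.00305 in limma.

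Cd5l is a secreted scavenger protein of macrophages, also called AIM. Its levels were 5.08, 8.02 and 10.1 FPKM in controls, 4.16, 7.36 and 4.49 FPKM after LPS and 11.7, 5.14 and 13.5 FPKM after LPS+MIC-1. All 3 groups overlapped, and in both injected groups library 2 was the one apart from the other two. Its Log2FC after LPS was −0.49 ± 0.40 (SE), adjusted P-value 0.3502 in limma.

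Emr1, now named Adgre1, encodes F4/80, the adhesion receptor by which mouse macrophages are most often recognised. In liver it was listed at 0, 1.25 and 0 FPKM in controls, at 1.60, 1.18 and 1.31 FPKM after LPS and at 0 in all 3 LPS+MIC-1 libraries. Its mean of 0.593 FPKM was under the filter, so it was not tested. At the estimated depth 3 reads would have given 0.0576 to 0.170 FPKM, and the files do not tell a low level from a failed estimate at a listed 0. None of 71 ribosomal protein genes, picked for a high mean FPKM, was listed at 0 in any liver library. Such abundant genes cannot tell how a gene as low as Emr1 was handled. Fcgr3 and Colec11 were each listed at 0 in some liver libraries, and reached 13.5 and 6.43 FPKM in others.

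Lyz2 encodes lysozyme M, made by macrophages, monocytes and neutrophils. It was at 13.4, 25.4 and 19.9 FPKM in controls, at 41.4, 28.0 and 41.8 FPKM after LPS and at 58.6, 19.1 and 56.7 FPKM after LPS+MIC-1. The LPS values were all above the controls, whereas LPS+MIC-1 library 2 lay among the controls. For LPS against control the Log2FC was 0.93 ± 0.44 (SE), adjusted P-value 0.128 in limma, and 0.0358 once LPS+MIC-1 library 2 was left out of the shared fit. With Clec4f, Vsig4, Cd163 and Marco, it was 1 of 5 members whose LPS and control ranges did not overlap, which held for 45% of all tested genes. An exact two-sided permutation test of 3 against 3 libraries cannot go below 0.1, and all 5 were at 0.1.

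**Figure D1:**
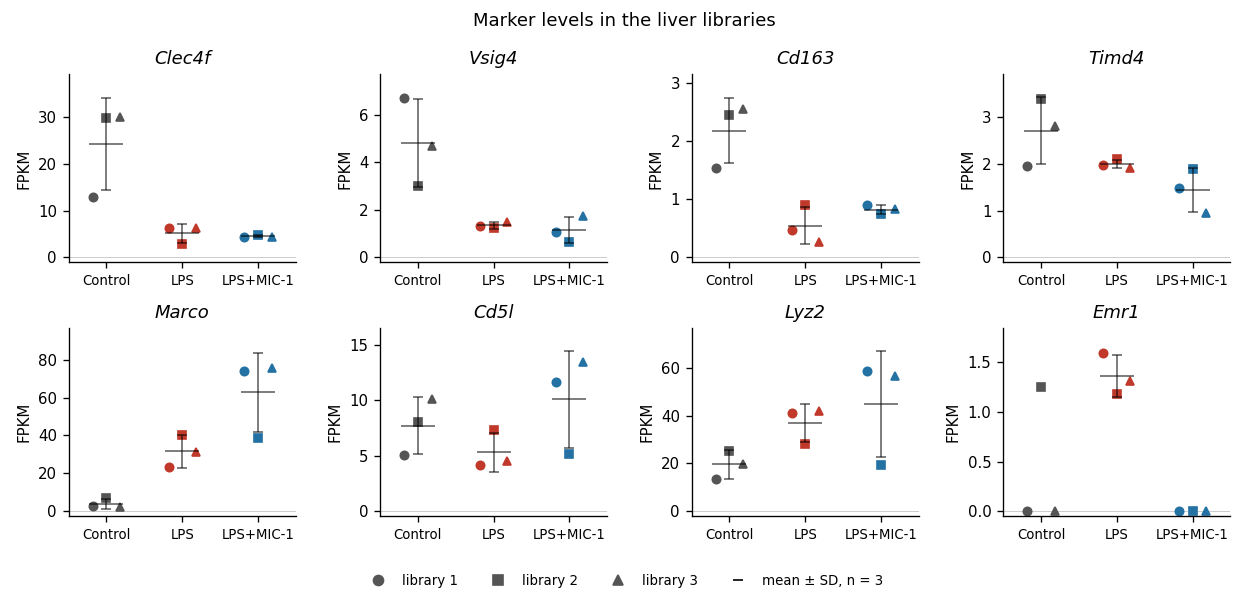
FPKM of 8 markers in each liver library, by group; symbols tell libraries 1 to 3 and the bars are the mean ± SD (n = 3), left out where a library is listed at 0. Clec4f, Vsig4 and Cd163 are below all controls in both injected groups, Marco is above them, and LPS+MIC-1 library 2 is apart for Marco, Cd5l and Lyz2.

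LPS+MIC-1 livers had the same 4 members called against control, in the same directions. Clec4f was lower by a Log2FC of −2.21 ± 0.38 (SE, adjusted P-value 0.00465 in limma), Vsig4 by −1.67 ± 0.33 (0.00720) and Cd163 by −0.99 ± 0.30 (0.0332), and Marco was higher by 3.96 ± 0.43 (0.000990). These 4 of 7 members were called beside 36.4% of all genes, 20.1% higher and 16.3% lower, and without Cd163 3 of 6 were called. The Cd163 call was lost in 6 of the 9 fits that each left out 1 liver library, with adjusted P-values between 0.0502 and 0.0970. Timd4 had a Log2FC of −0.74 ± 0.26 (0.0548), and it passed at 0.0262 without control library 1, at 0.0420 without LPS+MIC-1 library 2, and at 0.0125 and 0.0438 after rescaling the libraries to the same sum and by median of ratios. For Lyz2 the Log2FC was 1.059 ± 0.44 with 0.0897, and 1.58 with 0.0108 without LPS+MIC-1 library 2. Both comparisons use the same 3 control libraries.

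Directly between LPS+MIC-1 and LPS livers, no member was called, and none of the 10147 genes was (0%) at an adjusted P-value below 0.05 in limma. At an unadjusted P-value below 0.05 there were 364 genes, none of them a member. Marco came nearest, at 62.7 ± 21.1 FPKM (SD, n = 3) against 31.6 ± 8.65 FPKM, with a Log2FC of 0.95 ± 0.43 (SE), an unadjusted P-value of 0.0569 and an adjusted one of 0.997 in limma. Without LPS+MIC-1 library 2, its Log2FC was 1.27, adjusted P-value 0.516. Cd5l had a Log2FC of 0.80 ± 0.40 (SE), and 1.201 without that library, with adjusted P-values of 0.997 and 0.449 in limma. Timd4, at −0.40 ± 0.26, was the 1 member of 7 whose ranges did not overlap, against 9.75% of all genes. Clec4f, at −0.10 ± 0.38, Vsig4, at −0.21 ± 0.33, Cd163, at 0.38 ± 0.30, and Lyz2, at 0.13 ± 0.44, had smaller differences for their SE. The SE values leave room for differences of either sign.

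**Figure D2:**
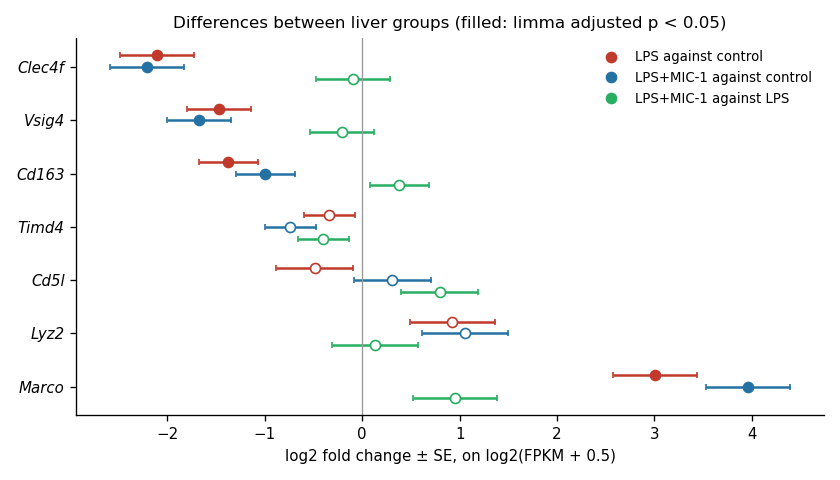
Log2FC ± SE of the 7 tested markers between liver groups, from limma on log2(FPKM + 0.5); filled points have an adjusted P-value below 0.05. Clec4f, Vsig4 and Cd163 lie left of 0 and Marco right of 0 against control, and no marker is filled for LPS+MIC-1 against LPS.

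Ratios within a library do not depend on the scaling between libraries. Csf1r, the receptor for the growth factor on which macrophages depend, was at 5.88 ± 2.08 FPKM in control, 6.67 ± 1.79 FPKM in LPS and 6.31 ± 1.04 FPKM in LPS+MIC-1 livers (SD, n = 3). Clec4f over Csf1r was 3.72, 4.07 and 4.40 in controls, 1.09, 0.327 and 1.15 after LPS and 0.649, 0.943 and 0.621 after LPS+MIC-1. Marco over Csf1r was 0.718, 0.928 and 0.319, then 3.99, 4.63 and 5.69, then 10.8, 7.51 and 10.8 in the same order. Here the 3 groups were all separate for Marco, and control libraries alone were separate for Clec4f. Marco over Clec4f went from 0.193, 0.228 and 0.0726 in controls to 3.66, 14.1 and 4.95 after LPS and 16.7, 7.96 and 17.4 after LPS+MIC-1. Control livers thus had several times more Clec4f than Marco per length of transcript, and injected livers had more Marco than Clec4f. These ratios were chosen after the values were seen and were not tested. Csf1r is no fixed reference: in RAW264.7 it was at 406 to 423 FPKM in controls and at 109, 409 and 108 FPKM in the LPS libraries. Ratios to it are therefore not levels per macrophage.

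**Figure D3:**
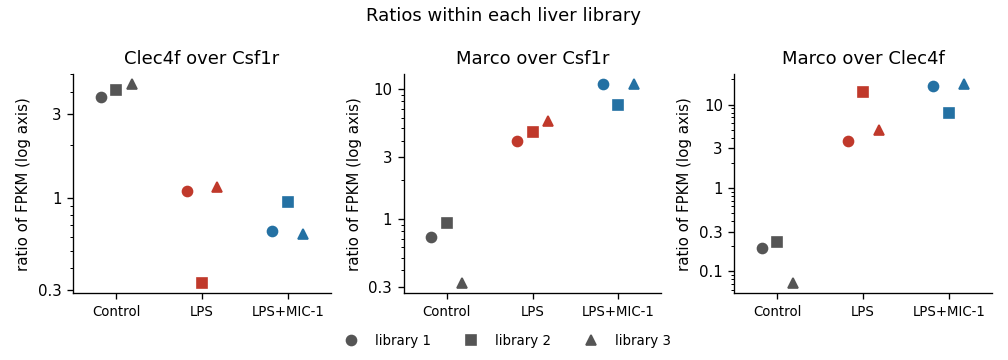
Ratios of FPKM within each liver library on log axes, for Clec4f over Csf1r, Marco over Csf1r and Marco over Clec4f; symbols tell libraries 1 to 3. Control libraries stand apart from both injected groups in each panel, and Marco over Clec4f is below 1 in controls and above 1 elsewhere.

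The sequences before the transcription start of the 4 called liver markers are shown because 3 of these genes fell together and 1 rose. They are the 250 bases upstream of the RefSeq start on build GRCm38.p6, a later build than that of the expression files: Clec4f at chr6:83656117-83656366 (minus), Vsig4 at chrX:96293439-96293688 (minus), Cd163 at chr6:124304401-124304650 (plus) and Marco at chr1:120505025-120505274 (minus). Capitals mark matches on either strand to 3 motifs: GAGGAA, the core bound by PU.1; GTGGGAA, bound by the Notch factor RBPJ; and an NF-kB form, read as GGG, any 2 bases, TT, any 1 base and CC.
Clec4f: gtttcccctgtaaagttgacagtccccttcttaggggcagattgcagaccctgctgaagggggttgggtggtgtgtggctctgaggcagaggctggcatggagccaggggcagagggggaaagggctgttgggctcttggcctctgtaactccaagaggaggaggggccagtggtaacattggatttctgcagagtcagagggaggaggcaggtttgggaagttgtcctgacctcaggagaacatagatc
Vsig4: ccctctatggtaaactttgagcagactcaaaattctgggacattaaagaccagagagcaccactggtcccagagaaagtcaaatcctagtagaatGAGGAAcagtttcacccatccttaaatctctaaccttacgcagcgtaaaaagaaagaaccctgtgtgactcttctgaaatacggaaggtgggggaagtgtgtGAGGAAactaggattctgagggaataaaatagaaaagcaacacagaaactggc
Cd163: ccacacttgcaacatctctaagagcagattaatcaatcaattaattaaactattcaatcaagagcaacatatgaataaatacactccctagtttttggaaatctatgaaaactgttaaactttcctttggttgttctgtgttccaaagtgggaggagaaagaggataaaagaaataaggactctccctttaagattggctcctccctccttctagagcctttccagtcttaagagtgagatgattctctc
Marco: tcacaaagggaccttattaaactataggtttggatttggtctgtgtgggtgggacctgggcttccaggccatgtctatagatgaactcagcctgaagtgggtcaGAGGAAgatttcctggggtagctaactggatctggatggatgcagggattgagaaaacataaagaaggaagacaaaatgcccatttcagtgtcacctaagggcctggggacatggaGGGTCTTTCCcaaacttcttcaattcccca
Vsig4 held the PU.1 core from positions −155 and −53, counted from the start. Marco held it from −146, and the NF-kB form, as GGGTCTTTCC, from −30. Clec4f and Cd163 held none of these letters in the window. Of 32851 promoter windows of the same length, 23.3% held the PU.1 core, 5.42% the RBPJ core and 4.11% the NF-kB form. Among the other 4 members with a window, Cd5l and Cd68 had the PU.1 core and Timd4 and Lyz2 none of the 3 motifs; Emr1 was not among the windows. A match is only a description of these letters.

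In whole liver, the other genes listed for Kupffer cells did not move as one group. The part of other cell types in their levels was not tested. Of 15 on the list 12 were tested, and after LPS 2 rose, 2 fell and 8 did not pass. Among the 10 with means above 1 FPKM in both groups, 1 rose and 2 fell. The median Log2FC of the 12 was 0.20 beside 0.15 over all tested genes (−0.05 beside −0.18 with libraries rescaled to the same sum). Spic, a transcription factor of iron-recycling macrophages, rose from 2.16, 2.84 and 0.925 FPKM to 8.62, 19.97 and 9.42 FPKM (Log2FC 2.40 ± 0.40 SE, adjusted P-value 0.00508 in limma). Slc40a1, the iron exporter ferroportin, fell from 15.5, 15.2 and 16.3 FPKM to 4.13, 9.51 and 4.80 FPKM (−1.37 ± 0.40, 0.0296). In LPS+MIC-1 livers Slc40a1 was at 20.4, 8.002 and 19.5 FPKM, with library 2 alone below the controls.

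Dmpk, a protein kinase better known from muscle, fell by 2.90 on the log2 scale (SE 0.46, adjusted P-value 0.00414 in limma). Il18bp, which binds and blocks interleukin 18, was listed at 0 in all 3 controls and at 24.0, 9.60 and 18.8 FPKM after LPS (adjusted P-value 0.0121), so no fold is given. Clec1b, a lectin receptor of platelets that Kupffer cells also carry, had 1.87, 5.35 and 5.57 FPKM in controls, 5.59, 6.32 and 6.29 FPKM after LPS (adjusted P-value 0.203) and 10.6, 12.5 and 9.97 FPKM after LPS+MIC-1. Against control the last was called, at a Log2FC of 1.39 ± 0.34 (SE, adjusted P-value 0.0151 in limma), with Spic and the adhesion gene Cdh5 also higher and Dmpk lower. At the same FPKM sum 1 of the 12 tested was higher and 1 lower in that comparison.

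The remaining 8 genes had no call after LPS. Id3 and Nr1h3, regulators of Kupffer cell identity, had Log2FC values of −0.61 ± 0.46 and 1.01 ± 0.77 (SE). Fcna, a ficolin that recognises microbial sugars, was almost level at −0.02 ± 0.15. C6, a complement component, was at −0.27 ± 0.36, Fabp7, a fatty acid binding protein, at −0.06 ± 0.45 and Folr2, a folate receptor, at 0.42 ± 0.98. Cdh5 was at 0.71 ± 0.25 with an adjusted P-value of 0.0548 in limma. Slc16a9, Pcolce2 and Kcna2 were under the filter, and Kcna2 ranged from 1.51 to 2.12 FPKM in controls and from 0.105 to 0.402 FPKM after LPS.

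Genes listed as general to macrophages mostly rose in liver, though only 13 of the 19 passed the filter in RAW264.7. Of 16 tested pan-macrophage genes, 11 rose, 1 fell and 4 did not pass after LPS, with a median Log2FC of 1.28 beside 0.15 over all genes. Fcer1g, the signalling chain of Fc receptors, went up by 2.27 ± 0.17 (SE, adjusted P-value 0.000290 in limma) and Mpeg1, the pore-forming perforin-2, by 2.24 ± 0.22 (0.000591). Mertk, a receptor for clearing dying cells, fell by 1.195 (SE 0.23, 0.00712). Against control, LPS+MIC-1 livers also had 11 higher and 1 lower, and Mertk fell by 1.13 there. At the same FPKM sum 9 rose and 1 fell after LPS, and 7 rose and 2 fell after LPS+MIC-1. Of 15 scavenger and phagocytic receptors 5 rose and 1 fell after LPS, and 3 rose and 3 fell at the same sum. Among the 12 with means above 1 FPKM in both groups, 4 rose and 1 fell. Fcgr4, an activating receptor for IgG, had a Log2FC of 2.88 ± 0.44 (adjusted P-value 0.00376 in limma). C5ar1, the receptor for complement C5a, had 1.90 ± 0.26 (0.00238), but it was outside those 12, at 0.380, 0.528 and 0.221 FPKM in controls. The mannose receptor Mrc1 fell by 1.30 (SE 0.42, 0.0410).

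Markers of blood-borne myeloid cells moved with these groups. The summed level of 13 monocyte markers was 13.7 to 23.5 FPKM in control, 111 to 143 FPKM in LPS and 81.9 to 116 FPKM in LPS+MIC-1 livers, and 5 of 7 tested rose after LPS and 1 fell. Of these 7, 4 had control means at or under 1 FPKM and 1, Cx3cr1, had such a mean after LPS. The 2 with both means above 1 FPKM rose. Chi3l3, a chitinase-like protein, went from 0.358, 0.633 and 0 FPKM to 19.3, 5.63 and 23.8 FPKM (adjusted P-value 0.00159 in limma). Plac8 had a Log2FC of 3.73 ± 0.33 (SE, 0.000456), whereas the chemokine receptor Cx3cr1 fell by 1.10 (SE 0.35, 0.0417). The 12 neutrophil markers found summed to 4.41 to 14.4 FPKM in control, 350 to 456 FPKM in LPS and 193 to 467 FPKM in LPS+MIC-1 livers, and all 9 tested rose after LPS (7 of 9 at the same sum). Of these 9, 7 had control means at or under 1 FPKM and passed the filter only through the injected groups, so their rise was largely set by the filter. S100a9 and S100a8 are the calprotectin subunits. S100a8 had a Log2FC of 5.53 ± 0.50 (SE, adjusted P-value 0.000456 in limma). It gave 228, 269 and 286 FPKM of the neutrophil sums in LPS livers, the largest part. RAW264.7 also expressed it, at 1.46 to 2.40 FPKM in controls, 29.7, 3.56 and 39.2 FPKM in LPS and 651 to 718 FPKM in LPS+MIC-1 libraries. The sum is therefore no measure of neutrophils alone. S100a9 was listed at 0, 0 and 0.448 FPKM in controls and at 47.1, 37.6 and 60.1 FPKM after LPS (0.000204), and no fold is given. Of the neutrophil list, Csf3r and Mpo were at 0 in all 3 controls. Marco and Lyz2 can also be made by these cells, and the part of such cells in their levels was not tested.

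**Figure D4:**
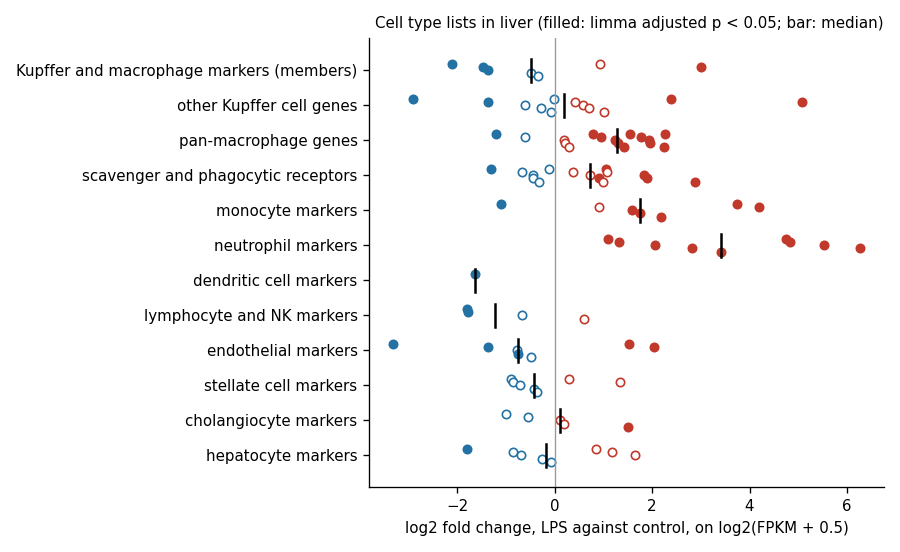
Log2FC of LPS against control in liver for the markers and 11 other cell type lists, 1 point per tested gene; filled points have an adjusted P-value below 0.05 in limma and black bars are list medians. Neutrophil markers are all right of 0 and filled, 7 of the 9 with control means at or under 1 FPKM, while the Kupffer cell lists spread to both sides.

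In RAW264.7, 5 of the 8 markers were at or near 0 and the other 3 were expressed. Clec4f, Vsig4, Marco, Timd4 and Cd163 had at most 0.0786 FPKM in any of 9 libraries, an estimated 1, 3, 2, 1 and 17 reads summed over all of them. Not one was tested there. Emr1, Lyz2 and Cd5l were expressed in every library. Of the 15 other Kupffer cell genes 7 passed the filter in this line, among them Fcna at 7.29 to 10.9 FPKM and Id3 at 22.3 to 82.3 FPKM. The 2 tables were normalised separately, and no level was tested across them.

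Emr1 was the member that LPS moved most in RAW264.7. It was at 37.7, 42.3 and 37.2 FPKM in controls, at 278, 41.2 and 290 FPKM in the LPS libraries and at 198, 115 and 193 FPKM after LPS+MIC-1. LPS library 2 lay within the controls, and the other 2 were above every other library. With all 9 libraries the Log2FC of LPS against control was 1.93 ± 0.68 (SE), adjusted P-value 0.0777 in limma. Without LPS library 2 it was 2.85 ± 0.22, adjusted P-value 1.37e-05.

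With all 9 libraries 0 of 3 tested members and 0 of 9905 genes (0%) were called for LPS against control in limma, although 4928 genes had an unadjusted P-value below 0.05, Emr1 at 0.0215 among them. Without LPS library 2, 1 of 3 members was called, beside 75.2% of all genes. At the same FPKM sum that fit called 1 member higher and 2 lower. The median Log2FC was then −0.84 for members and −0.93 over all genes. Deposited FPKM summed to 1137530 and 1132900 in LPS libraries 1 and 3, and to 557136 to 592848 in controls, so these calls depend on the scaling.

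Between LPS+MIC-1 and LPS cells, the direction for Emr1 turned with that library. The Log2FC was 0.13 ± 0.68 (SE, adjusted P-value 0.906 in limma) with it and −0.79 ± 0.22 (0.0130) without it. All 3 tested members were called lower in the fit without that library. At the same FPKM sum that fit called 1 higher and 1 lower, with a median Log2FC of 0.0085, so not all 3 falls held. Against control, LPS+MIC-1 cells were higher in Emr1 by 2.06 ± 0.68 (0.0591), all 3 above all controls, and the same difference had an adjusted P-value of 8.37e-05 in the fit without LPS library 2.

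Cd5l fell with MIC-1 in the cell line, also with any 1 library left out. Controls had 4.66, 4.47 and 5.46 FPKM, LPS libraries 3.997, 4.84 and 4.55 FPKM and LPS+MIC-1 libraries 1.36, 0.799 and 1.11 FPKM. The control and LPS ranges overlapped, and the LPS+MIC-1 values were below all of them. LPS+MIC-1 against LPS gave a Log2FC of −1.66 ± 0.18 (SE, adjusted P-value 0.00124 in limma), and −1.60 ± 0.17 (0.000106) without LPS library 2. Against control it was −1.77 ± 0.18 (0.000831). LPS alone gave −0.11 ± 0.18 (0.613) with all libraries on the deposited scale. At the same FPKM sum and without LPS library 2, Cd5l was among the 2 members called lower for LPS against control. With libraries 1 and 3 of each group averaged, which leaves 2 values a group, the first difference was −1.75 and the second −1.81, with adjusted P-values of 0.123 and 0.106 in limma. Cd5l was the 1 of 3 tested members called in both comparisons of LPS+MIC-1, against LPS and against control, beside 21.6% and 24.8% of all genes. Without LPS library 2, 3 of 3 and 2 of 3 were called, beside 68% and 60.3%.

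Lyz2 was expressed at a high level in the line, at 9171, 10699 and 8928 FPKM in controls, 10560, 10571 and 10746 FPKM in LPS and 8817, 8726 and 8934 FPKM in LPS+MIC-1 libraries. LPS+MIC-1 values were below all LPS values by a small margin. The Log2FC between these groups was −0.27 ± 0.18 (SE, adjusted P-value 0.292 in limma), and −0.27 ± 0.09 (0.0271) without LPS library 2. When each library was rescaled to the same FPKM sum the sign turned, to 0.23. Without LPS library 2, only 1 of the 3 tested members was called lower at that sum, and 1 was called higher.

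**Figure D5:**
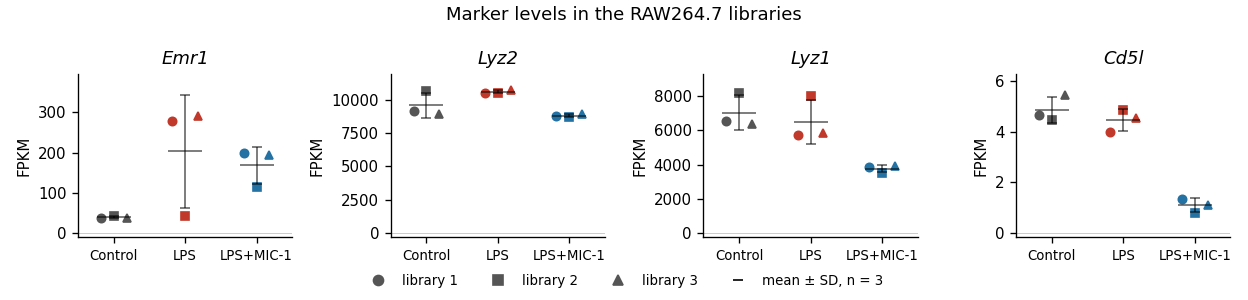
FPKM of Emr1, Lyz2, Lyz1 and Cd5l in each RAW264.7 library, by group; symbols tell libraries 1 to 3 and the bars are the mean ± SD (n = 3). LPS library 2 is level with the controls for Emr1, and Cd5l and Lyz1 are lowest in the LPS+MIC-1 libraries.

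Lyz2 shares reads with Lyz1, its neighbour on mm9 chromosome 10 (chr10:116724852-116729924 for Lyz1 and chr10:116714390-116719377 for Lyz2, both minus). The first 180 coding bases of each are shown, from the start codon of the mm9 transcripts. Within this stretch the genes can be told apart only at the 15 positions that differ, which capitals mark.
Lyz1: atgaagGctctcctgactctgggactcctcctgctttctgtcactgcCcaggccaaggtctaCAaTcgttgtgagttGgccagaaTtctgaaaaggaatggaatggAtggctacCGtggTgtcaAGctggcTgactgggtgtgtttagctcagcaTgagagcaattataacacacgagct
Lyz2: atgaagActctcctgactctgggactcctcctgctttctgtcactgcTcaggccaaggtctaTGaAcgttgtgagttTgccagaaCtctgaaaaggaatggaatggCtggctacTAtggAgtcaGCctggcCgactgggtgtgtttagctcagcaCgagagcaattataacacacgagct
The coding sequences of 447 bases differed at 22 positions (95.1% identity). Of the 31-base words of the whole Lyz2 transcript 32.9% occurred in Lyz1 too, and 34.2% the other way round. Values of both genes are therefore uncertain as far as reads from shared stretches were divided by estimate.

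Lyz1 was at 4.69, 17.2 and 14.6 FPKM in control livers, 5.72, 18.8 and 8.49 FPKM after LPS and 21.2, 9.90 and 15.2 FPKM after LPS+MIC-1, with overlapping ranges. Its share of both lysozymes was 12.1% to 42.3% in liver and 28.7% to 43.4% in RAW264.7. In the cell line it had 6574, 8203 and 6351 FPKM in controls, 5705, 7988 and 5844 FPKM in LPS and 3861, 3505 and 3898 FPKM in LPS+MIC-1 libraries, the last below all others. There, LPS+MIC-1 against LPS gave −0.78 ± 0.20 (SE, adjusted P-value 0.0326 in limma), and −0.62 ± 0.12 (0.00208) without LPS library 2. With both genes added together that Log2FC was −0.44, adjusted P-value 0.142, and in liver LPS against control gave 0.67 with 0.233.

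Across the 9 liver libraries, the genes outside the markers whose log2 values followed each marker most closely were Kdm5b and Exoc5 for Clec4f (Pearson r 0.981 and 0.980), Hsd11b1 and Bdh2 for Vsig4 (0.976 and 0.974) and Acad10 and Mta1 for Cd163 (0.990 and 0.985). For Marco they were Smyd1 and Flot1 (0.990 and 0.987), for Timd4 Parp4 and Gtf2h4 (0.988 and 0.966), for Cd5l Gpihbp1 and Dhrs1 (0.960 for each) and for Lyz2 Sgk1 and Sin3a (0.961 and 0.959). These are the 2 highest of all tested genes over libraries that share group and depth, and they describe likeness only.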

How the data were processed

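The authors sequenced RNA at BGI, quantified it with kallisto 0.45.0 on an mm9 RefSeq index, summed transcripts per gene with tximport and used DESeq2 1.20.0 to compute the deposited FPKM values, in 1 table for liver and 1 for macrophages. Another 6 deposited tables hold the authors' own comparisons and were not used. Table columns name a group only; the numbers given to libraries here follow their order in the table. Here log2(FPKM + 0.5) of genes with a mean above 1 FPKM over the 9 libraries of a table was fitted with limma 3.58.1 (R 4.3.3; 3 groups in 1 fit, eBayes with trend) and Benjamini-Hochberg adjusted over all tested genes; called means an adjusted P-value below 0.05. Depth was estimated from low FPKM values, of which 83.1% to 94.9% per library lay within 0.15 of whole reads. Deposited FPKM values do not sum alike, so alternatives rescaled them. The procedure was tested on simulated data. The members, lists and tests were chosen with earlier results of these data known. Named genes were the members, Lyz1, all other Kupffer cell genes, the 2 largest calls per direction in each other list, and the 2 genes most like each member. RefSeq promoter windows matched 8 of the 9 members. Alternatives were other pseudocounts (0.1 and 1), no filter, 2 rescalings, the 2 compared groups alone, each library left out, a stricter call and, chosen after seeing the data, libraries 1 and 3 averaged. In liver that averaging was done in the LPS and LPS+MIC-1 groups only.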

Additional observations from a re-analysis of the deposited data

Results flagged for a closer look

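Lyz2 in LPS+MIC-1 against control is given because the direction differed between liver and RAW264.7. In liver its Log2FC was 1.059 and each of 3 LPS+MIC-1 libraries was above the control mean of log2 values, library 2 only just. In RAW264.7 it was −0.12 and each of 3 was below. Neither difference had an adjusted P-value below 0.05 in limma, and the difference between the tables was not tested. Of 6 marker comparisons that could be made in both tables, it was the 1 in which every library moved one way in liver and the other way in RAW264.7. Cd5l in LPS+MIC-1 against control also had opposite signs, at 0.31 in liver and −1.77 in RAW264.7, with liver library 2 below the control mean. Against LPS the signs were opposite as well for Cd5l, at 0.80 and −1.66, and for Lyz2, at 0.13 and −0.27.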

How the results depend on the processing

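No paired analysis was possible because the columns carry no replicate numbers. Marker calls for LPS against control in liver went from 4 to 2 under an adjusted P-value below 0.01 with an absolute Log2FC above 1, and to 2 with libraries 1 and 3 averaged, where Vsig4 and Cd163 were lost and Clec4f and Marco stood at 0.0427 and 0.0280 in limma. Leaving out 1 library at a time gave 3 to 5 in liver for both comparisons with control and 0 throughout for LPS+MIC-1 against LPS. In RAW264.7 it gave 0 to 1 for LPS against control, 1 to 3 for LPS+MIC-1 against LPS and 1 to 2 for LPS+MIC-1 against control. With libraries 1 and 3 averaged the last pair went from 1 to 0 each. LPS+MIC-1 against control gave 2 after rescaling to the same sum, and 2 with the compared groups alone, Emr1 being added at 0.0364 and 0.000346 in limma. The cause was not tested.

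Without RAW264.7 LPS library 2, 75.2%, 68% and 60.3% of all genes were called in the 3 comparisons. Calls among list genes for LPS against control went from 0 to 4 of 7 tested (other Kupffer cell genes), 11 of 13 (pan-macrophage), 14 of 16 (scavenger and phagocytic receptors), 5 of 5 (monocyte), 4 of 4 (neutrophil), 1 of 1 each (dendritic, endothelial, stellate, cholangiocyte) and 1 of 2 (hepatocyte). For LPS+MIC-1 against LPS they went from 3 to 11 of 13 (pan-macrophage), 7 to 11 of 16 (scavenger), 1 to 3 of 5 (monocyte) and 0 to 1 of 1 each (endothelial, stellate, cholangiocyte). Against control they went from 4 to 7 of 13 (pan-macrophage), 7 to 14 of 16 (scavenger), 4 to 5 of 5 (monocyte) and 0 to 1 of 1 (cholangiocyte). The single tested genes were Cd83 (dendritic), Eng (endothelial), Ecm1 (stellate) and Spp1 (cholangiocyte). Spp1 was at 14436 to 33024 FPKM, whereas Krt19, Krt7 and Epcam were at 0 in every RAW264.7 library. Alb and Apoa1, the tested hepatocyte genes, did not exceed 5.46 FPKM. A call here is about that gene in the line, not about the cell type that names its list.

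Reversals against the fits with all libraries were in differences that had not been called there. In the fit without RAW264.7 LPS library 2, LPS+MIC-1 against LPS went from 3 members lower to 1 higher and 1 lower at the same sum. For LPS+MIC-1 against LPS in liver, leaving out 1 library at a time gave −0.44 to 0.073 for Clec4f, −0.45 to 0.028 for Vsig4 and −0.14 to 0.65 for Lyz2. With libraries 1 and 3 averaged Clec4f turned to 0.094 and Lyz2 to −0.035, and at the same sum Lyz2 turned to −0.15. Cd5l against control in liver turned to −0.31 at the same sum. In RAW264.7 the same sum turned Lyz2 to −0.53 for LPS against control and 0.23 for LPS+MIC-1 against LPS. Emr1 in the latter ranged from −0.79, without LPS library 2, to 0.61, without LPS library 3. Rescaling to the same sum moved the median Log2FC of all genes to −0.18, −0.26 and −0.43 in liver for LPS against control, LPS+MIC-1 against LPS and LPS+MIC-1 against control, and to −0.65, 0.44 and −0.21 in RAW264.7. Depth limits the low markers most: Timd4, Cd163 and Vsig4 rest on an estimated 26 to 67, 18 to 68 and 10 to 86 reads per liver library.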

Other observations

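Markers of other liver cell types were called in some lists and not in others, beside 34.7% of all genes. After LPS, Cd3d and Cd79a, chains of the T and B cell receptors, fell by 1.79 and 1.77 on the log2 scale (adjusted P-values 0.00924 and 0.00873 in limma). They were 2 of 4 tested lymphocyte markers. Xcr1 of cross-presenting dendritic cells, the 1 tested of 8, fell by 1.64 (0.0191). Cd79a and Xcr1 passed the filter on low values only through the controls, so their calls support nothing by themselves. Of the 2 lymphocyte markers with means above 1 FPKM in both groups, 1 was lower. Endothelial markers were split, 2 higher and 3 lower of 7, or 1 and 3 of the 6 with means above 1 FPKM in both groups. The hyaluronan receptor Lyve1 rose by 1.52 (0.00898). Pecam1 was called higher (0.0368) from 1.91, 0 and 0 FPKM in controls to 2.23, 3.89 and 3.02 FPKM. The sinusoidal lectin Clec4g fell by 3.32 (0.0167) and the VEGF receptor Kdr by 1.37 (0.0156). None of 7 stellate cell markers was called, 1 of 5 cholangiocyte markers was higher (Sox9, 1.51, 0.00667) and 1 of 8 hepatocyte markers lower (Cps1, −1.79, 0.0331), or 3 of 8 at the same FPKM sum.

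In RAW264.7, 4 of the 12 neutrophil markers found were tested, and 3 of them were higher in LPS+MIC-1 than in LPS libraries, beside 21.6% of all genes. Without LPS library 2 it was also 3 of 4, beside 68% of all genes. The other 8 were under the filter, S100a9 at no more than 0.482 FPKM in any library. S100a8 was at 1.46, 2.40 and 1.54 FPKM in controls, 29.7, 3.56 and 39.2 FPKM in LPS and 651, 676 and 718 FPKM in LPS+MIC-1 libraries, with LPS library 2 again near the controls. LPS+MIC-1 against LPS gave a Log2FC of 5.33 (SE 0.74, adjusted P-value 0.00340 in limma), and 4.30 (SE 0.18, 3.00e-06) without LPS library 2. The iron exporter Slc40a1 was at 1.68, 1.72 and 1.36 FPKM, then 0.873, 2.07 and 0.714 FPKM, then 5.24, 8.81 and 5.92 FPKM in the same order. Its Log2FC against LPS was 2.11 (0.00411) with all libraries. The C-type lectin Clec4n was at 1.39, 2.93 and 1.84 FPKM in controls, 34.1, 2.62 and 33.9 FPKM in LPS and 210, 98.5 and 204 FPKM in LPS+MIC-1 libraries. Its Log2FC of LPS+MIC-1 against control was 6.03 (0.00313) with all libraries. LPS libraries 1 and 3 were already above every control.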
